A study of Mus musculus with 15 samples.

Results

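Naive ganglia here are the lumbar 4 to 6 dorsal root ganglia of mice without nerve injury, and the comparison sets mice that lack the miR-183 cluster against control mice. The condition and genotype labels put 9 of the 15 libraries of the study into it, 4 knockout (replicates 4, 5, 8 and 9) and 5 control (replicates 1, 2, 3, 6 and 7). The labels give the knockout genotype as Wnt1-Cre with 2 floxed alleles of the microRNA locus. They give control replicates 1, 2, 3 and 6 as Wnt1-Cre, and replicate 7 as wild type, without Cre. All animals were 3 to 6 months old, on a mixed strain background that is mostly C57bl6. Each library came from a separate animal. The other 6 libraries come from ganglia after spared nerve injury (SNI) in the same 2 genotype classes, 3 each, and they enter the fit, where they share in the estimate of the spread, and are used to read the naive changes again in separate animals.

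The cluster is a single transcription unit that gives rise to miR-183, miR-96 and miR-182, microRNAs best known from sensory organs such as the retina, the inner ear and the sensory ganglia. A microRNA guides Argonaute proteins to messenger RNAs that pair with its seed, usually in the 3′ untranslated region (UTR), and such messages are destabilised or translated less. Wnt1-Cre acts in the neural crest, from which the neurons and glia of these ganglia arise. Vessels, blood-derived cells and muscle mostly have other origins and keep the cluster. A dorsal root ganglion holds several classes of sensory neuron, for touch, position, heat, cold, pain and itch, each marked by its own channels and receptors, among satellite glia, Schwann cells, macrophages and connective tissue. In bulk RNA, fewer cells of a type and less RNA per cell cannot be told apart.

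The 9 libraries held 7.59 to 10.75 M counts, so that 3 counts, the upper limit that a count of 0 allows, correspond to 0.279 to 0.395 CPM in a single library. The 8 defining sensory neuron markers were present in each library, with Prph between 1228 and 1786 CPM and Isl1 between 78.7 and 102 CPM. Mitochondrial transcripts took 2.43 to 3.46% of the counts, and Spearman correlations across genes within a group were 0.990 to 0.993. On the first principal component, which held 24.1% of the variance, the knockout libraries lay between 9.2 and 26.5 and the control libraries between -20.4 and -11.2. The deletion itself could not be read, because Mir183, Mir96 and Mir182 had 0, 1 and 2 counts over all 15 libraries.

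The mature strands of the 3 microRNAs are shown first, because the sites counted below follow from their seeds. They are from RefSeq (GRCm38.p6, minus strand of chromosome 6), with the seed, bases 2 to 8, in capitals. The seeds of miR-96-5p and miR-182-5p share 6 of their 7 bases in a row, as do the last 6 of miR-183-5p and miR-96-5p.
miR-183-5p: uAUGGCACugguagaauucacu
miR-96-5p: uUUGGCACuagcacauuuuugcu
miR-182-5p: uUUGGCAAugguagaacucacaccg

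Of the 8 genes with the smallest p among those that rose and hold an 8mer, 7 are shown with 1 site each, in capitals, within 28 bases of the longest annotated 3′ UTR (GENCODE M21, GRCm38). An 8mer pairs with the whole seed and has an A opposite the first base of the microRNA. It reads GTGCCATA for miR-183-5p, GTGCCAAA for miR-96-5p and TTGCCAAA for miR-182-5p, searched on the transcript strand.
Slc1a1, miR-96-5p, chr19:28912355-28912382, plus strand: cccagttaatGTGCCAAAttttccattt
Gng4, miR-183-5p, chr13:13825605-13825632, plus strand: aaaaacaaatGTGCCATAtaaaagtgta
Gng12, miR-96-5p, chr6:67020518-67020545, plus strand: ttaaaaatatGTGCCAAAttatatttgt
Mob3a, miR-182-5p, chr10:80685326-80685353, minus strand: cttggccaccTTGCCAAAtcccagcagc
Arf2, miR-96-5p, chr11:103984141-103984168, plus strand: tctttccattGTGCCAAAgctagcagct
Klhl8, miR-96-5p, chr5:103862811-103862838, minus strand: gtttgatgtaGTGCCAAAccttaaaata
B4galnt1, miR-96-5p, chr10:127172110-127172137, plus strand: cactttccaaGTGCCAAAgagcccagaa

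The 8 genes, these 7 and Slc25a1, stood apart between the groups in every library. Levels are in CPM, counts scaled by sequencing depth and TMM factors, given for control replicates 1, 2, 3, 6 and 7 and then for knockout replicates 4, 5, 8 and 9. Slc25a1, the mitochondrial citrate carrier, was at 97.3, 96.1, 89.5, 91.6 and 85.0 CPM in control and at 241, 259, 238 and 277 CPM in knockout (log2 fold change 1.46, SE 0.0805). Slc1a1, a neuronal glutamate transporter, was at 7.68, 5.86, 7.28, 6.92 and 6.28 CPM in control and 21.6, 17.2, 21.7 and 17.5 CPM in knockout (log2 1.51, SE 0.128). The lowest knockout library of each lay well above the highest control library. Both are carriers, of citrate and of glutamate. Gng4, a G protein gamma subunit, was at 11.4, 12.5, 11.7, 13.4 and 10.9 CPM in control and 25.5, 25.4, 29.2 and 28.9 CPM in knockout (log2 1.18, SE 0.103). Gng12, another gamma subunit, was at 33.8 to 40.5 CPM in control and 68.0 to 69.7 CPM in knockout (log2 0.90, SE 0.0806). The 4 knockout libraries differed less among themselves for Gng12 than the control libraries did. Mob3a, a kinase activator of the MOB family, was at 34.1 to 38.2 and 71.7 to 78.5 CPM (log2 1.03, SE 0.0947). Arf2, a small GTPase of membrane traffic, was at 25.3 to 31.2 and 55.7 to 63.7 CPM (log2 1.01, SE 0.0989). Klhl8, an adaptor of a ubiquitin ligase, was at 13.4 to 15 and 23.4 to 24.9 CPM (log2 0.78, SE 0.0806). B4galnt1, which makes the complex gangliosides of neuronal membranes, was at 24.7 to 30.0 and 57.9 to 76.4 CPM (log2 1.24, SE 0.131). The adjusted p of these 8 genes ran from 3.38e-08 to 5.5e-05. Mob3a overlaps the predicted gene Gm26541 on the other strand, which was called higher too (log2 1.08), and the strand setting of the counting is not given in the sources used here.

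Sites were most frequent for miR-96-5p. Of the 143 genes called higher with an annotated 3′ UTR, 51 (35.7%) held a miR-96-5p 8mer, 18 (12.6%) a miR-182-5p 8mer and 7 (4.90%) a miR-183-5p 8mer. Among the 14141 genes that were not called these shares were 2.68, 5.01 and 1.90%. Among the 157 genes called lower they were 1.27, 5.73 and 2.55%. Taking all 3 microRNAs, 68 of the 143 held an 8mer (47.6%), against 8.92% of the genes called lower and 8.95% of those not called. The share did not grow with the size of the rise. It was 41.9% for genes that rose at least 2-fold, 44.9% between 1.5-fold and 2-fold and 52.4% under 1.5-fold. Longer 3′ UTRs have room for more sites. Among genes called higher with a 3′ UTR above their median of 1448 bases 64.8% held an 8mer, against 16.0% of genes not called with a UTR above that length. For shorter UTRs the shares were 30.6 and 3.67%.

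**Figure D1:**
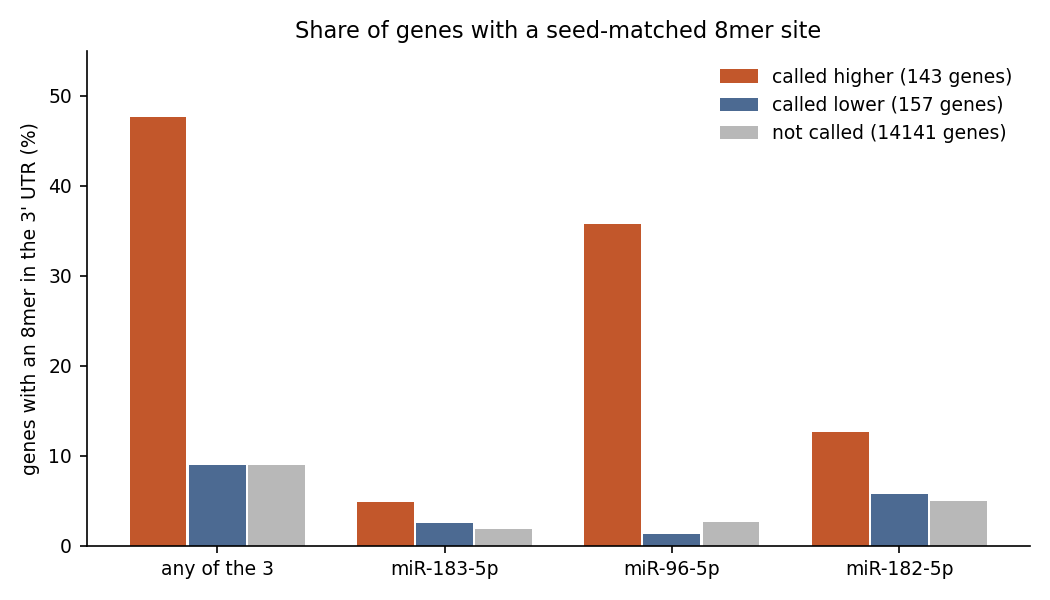
Share of genes whose longest 3′ UTR holds an 8mer of any of the 3 microRNAs, or of each one, for genes called higher, called lower or not called in naive knockout ganglia. The bar of genes called higher stands at 47.6% for any of the 3 and at 35.7% for miR-96-5p.

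Read from the site to the gene, most holders of a site were not called. Of 432 tested genes with a miR-96-5p 8mer 51 were called higher (11.8%) and 2 lower, with a median log2 fold change of 0.11 and 66.9% above 0. Of 279 genes with a miR-183-5p 8mer 2.51% were called higher, and of 736 with a miR-182-5p 8mer 2.45%. With 2 or more 8mers it was 8.64% of 162 genes, and with 1 it was 4.56% of 1185. Genes whose best site was a 7-base match were called higher less often than genes with any 8mer (5.05%). The shares were 0.872% for a full seed match without the A, 0.552% for 6 seed bases with the A and 0.496% with no site. The shares called lower were 1.07, 1.1 and 1.1% in the same order. Over all tested genes, which include the 8mer holders, 0.889% were called higher. Among the 14 genes called higher with 2 or more 8mers were Arf2, Cep170b, Evi5l, Lrrc58, Nova2, Nus1, Ostm1, Rgs2, Rnf227, Slc1a1, Slc39a1, Zdbf2 and Zmynd19. Nova2 had 4, all of miR-96-5p, in a UTR of 6701 bases. Of the 14, the calls of Evi5l and Ostm1 were lost without knockout replicate 9, that of Zmynd19 without knockout replicate 5 or 9, those of Cep170b, Lrrc58 and Nus1 without 7 or 8 of the 9 naive libraries and that of Slc39a1 without any 1 (adjusted p up to 0.181). These shares count genes and hold no spread between animals, and they were not tested here.

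Across the genome the change was sparse and about even in direction. Calls rest on edgeR's quasi-likelihood test with Benjamini-Hochberg adjustment, at a threshold of 0.05, and all adjusted p values are of that kind unless another tool is named. Of 16976 genes tested 321 were called (1.89%), 151 higher (0.889%) and 170 lower (1.00%). At an unadjusted p under 0.05 in the same test stood 1984 genes. Counts of calls in the lists and families below stand beside these shares. Most changes were small. Of the rises 34 were at least 2-fold, 53 lay between 1.5-fold and 2-fold and 64 were smaller, and of the falls 46, 68 and 56. The median over all tested genes was 0.00 on the log2 scale. The groups did not overlap for 150 of the rises and 166 of the falls, where 9.63% of all tested genes had groups that did not overlap (4.87% with knockout higher and 4.75% with knockout lower). The fit shares its estimate of the spread with the injured libraries. The 9 naive libraries fitted alone called 1017 of 16457 genes (6.18%), 504 higher (3.06%) and 513 lower (3.12%), and 149 of the 151 and 168 of the 170 were among them. Without control SNI replicate 23, the injured library with the fewest counts (5.25 M), the count was 708. Leaving out 1 naive library gave 151 (without knockout replicate 9) to 229 genes (without control replicate 3). The drop was over 1.5 times for each library other than control replicate 3. The calls of 69 rises and 60 falls were kept on leaving out any 1 of the 9 libraries. This holds for every call described here unless libraries are named beside it, and calls in the 9 libraries alone are given as such.

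**Figure D2:**
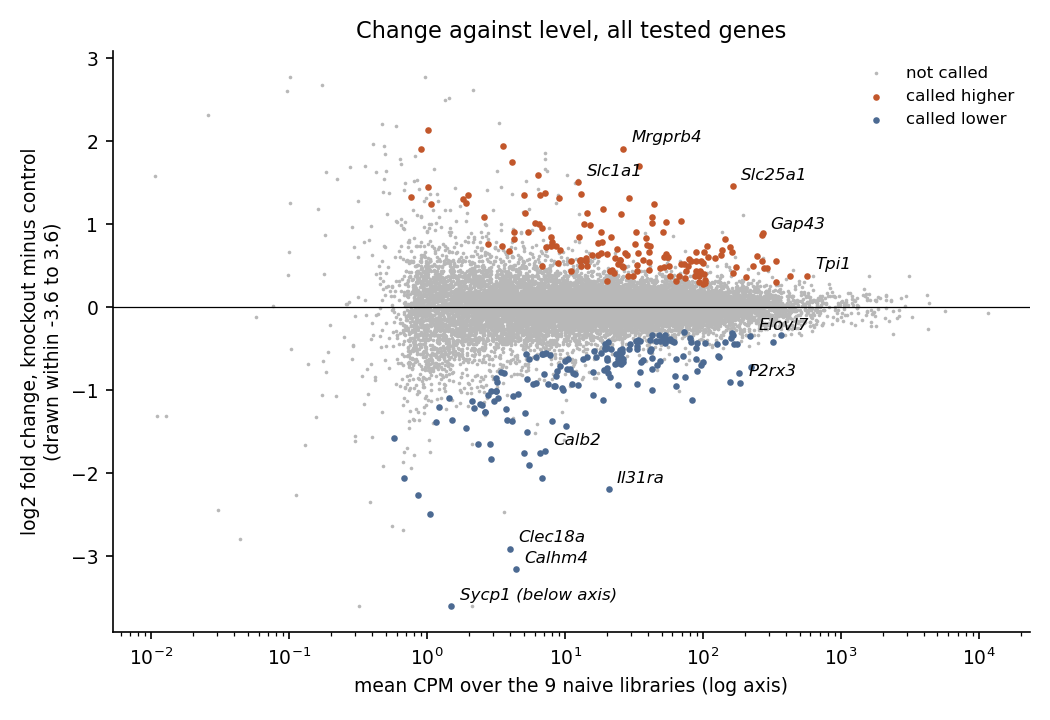
Log2 fold change of knockout against control for each tested gene, against its mean level over the 9 naive libraries on a log axis, with called genes coloured. Rises and falls are found among low and high transcripts, and Sycp1 lies beyond the lower end of the axis.

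Animals came in separate ranges of numbers, which the labels do not call a batch. Controls 1, 2 and 3 and knockouts 4 and 5 carry numbers 1041 to 1056, and controls 6 and 7 and knockouts 8 and 9 numbers 1079 to 1082. Since nearly all called genes have groups that do not overlap, their direction within a range is fixed by the calls, and only the sizes are given. The median log2 fold changes of rises and falls were 0.61 and -0.65 in the first range and 0.66 and -0.75 in the second. Xist was high and the Y-linked genes at or near 0 in control replicate 6 and knockout replicates 8 and 9, and the reverse in the other 6 libraries. With the presence of Y-linked transcripts as a covariate, added after these levels were seen, 302 genes were called.

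Among markers of sensory neuron classes, calls were most numerous in nociceptors of the Mrgprd class and in itch neurons. The markers are lists of genes, written with earlier results of these data known, and their counts stand beside the 1.89% called over all genes. Non-peptidergic nociceptors, the skin-innervating pain fibres marked by the receptor Mrgprd, had 6 of 17 markers called lower and none higher, with a median log2 fold change of -0.43. Itch neurons of the class that makes somatostatin (Sst) and natriuretic peptide (Nppb) had 4 of 14 called lower, and all 14 lay below 0, with a median of -0.56. Without knockout replicate 4 the median of the latter was -0.38. Itch neurons of the class marked by Mrgpra3 had 3 of 15 called higher, with a median of -0.01. In the 9 libraries alone the calls were 9, 6 and 3 of the same directions, and 2 markers of the Mrgpra3 class were lower there. The summed levels of the Mrgprd class ran from 2523 to 3416 CPM in control and from 2101 to 2381 CPM in knockout, without overlap, and those of the Sst and Nppb class from 660 to 758 and from 594 to 635 CPM.

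Among the Mrgprd class markers, P2rx3, the ATP-gated channel of these fibres, was at 215, 265, 170, 279 and 236 CPM in control and 105, 142, 124 and 124 CPM in knockout (log2 -0.91, SE 0.142, adjusted p = 0.00185). Mrgprd itself was at 193, 191, 135, 218 and 249 CPM in control and 91.7, 105, 102 and 123 CPM in knockout (log2 -0.90, SE 0.161, adjusted p = 0.00623). The groups did not overlap for either, with control replicate 3 the nearest to the knockout libraries. Prkcq, a protein kinase C of the theta type, fell from 119 ± 12.6 CPM (SD, n = 5) to 75.2 ± 1.79 CPM (n = 4). Grik1, a kainate receptor subunit, fell from 270 ± 42.3 to 164 ± 14.5 CPM, and was not called without knockout replicate 4 (adjusted p = 0.0526). The lysophosphatidic acid receptors Lpar3 and Lpar5 fell by 0.93 and 0.91 on the log2 scale. Lpar3 was not called without knockout replicate 8 (adjusted p = 0.0565), and Lpar5 without 5 of the 9 libraries, where adjusted p reached 0.092.

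Called markers were lower in one itch class and higher in the other. Il31ra, the interleukin-31 receptor of the Sst and Nppb class, was at 29.0, 30.4, 25, 39.4 and 34.1 CPM in control and 3.66, 8.63, 6.94 and 8.62 CPM in knockout (log2 -2.19, SE 0.222, adjusted p = 5.5e-05). Htr1a, a serotonin receptor counted with the same class, was at 10.5, 12.5, 9.15, 10.3 and 8.68 CPM in control and 1.42, 2.97, 2.66 and 2.74 CPM in knockout (log2 -2.06, SE 0.297, adjusted p = 0.00107). Neither gene had a knockout library near a control library. Pde4c, a cyclic AMP phosphodiesterase, fell by 0.94 and Ptprk, a receptor tyrosine phosphatase, by 0.78. The class peptides themselves were not called, Nppb at 13.7 ± 2.79 against 7.11 ± 2.53 CPM (adjusted p = 0.477) and Sst at 4.69 ± 1.35 against 3.05 ± 1.90 CPM (adjusted p = 0.63). Mrgpra3, a chloroquine receptor, was at 17.5, 18.8, 14.6, 16.9 and 19 CPM in control and 52.5, 76.9, 50.6 and 44.5 CPM in knockout (log2 1.70, SE 0.214, adjusted p = 4.77e-04). Mrgprb4, which marks fibres of stroking touch, was at 7.93 to 14.8 CPM in control and 34.6 to 59.5 CPM in knockout (log2 1.91, SE 0.246), and Mrgprx1 at 20.2 to 26 and 35.3 to 49.8 CPM (log2 0.91, SE 0.15). Of 12 Mrgpr receptor genes tested 3 were called higher and 1, Mrgprd, lower. These receptors are similar paralogs on chromosome 7, and how reads that match several of them were counted is not given in the sources used here. Pde4c was not called without knockout replicate 4 or 8 (adjusted p up to 0.0597), and Ptprk without any 1 library (up to 0.131).

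In the other neuron classes 0 to 2 markers of each list were called. Peptidergic nociceptor markers had 0 of 17 called in edgeR's test (median -0.02, 1 at an unadjusted p under 0.05, 0 in DESeq2 and in limma-voom), with Cckar and Fam19a1 called lower in the 9 libraries alone. Among 23 markers of A-fibre touch and position neurons, the transcription factor Shox2 was called higher (log2 0.49) and Ntrk3, the neurotrophin-3 receptor, lower (log2 -0.64). In the 9 libraries alone 2 of the 23 were called higher and 5 lower. Ntf3, the ligand of Ntrk3, was called higher, from 0.655 ± 0.237 to 1.57 ± 0.438 CPM. Calb2, the calcium buffer calretinin of some touch neurons, was at 9.26, 11.7, 10.5, 9.84 and 10.6 CPM in control and 3.35, 2.68, 2.76 and 3.79 CPM in knockout (log2 -1.73, SE 0.186, adjusted p = 6.29e-05), again with no overlap. C low-threshold mechanoreceptors had Nxph1 (log2 -1.07) and Ceacam10 (log2 -1.76) called lower among 13 markers (15.4%), and 4 lower in the 9 libraries alone. Their summed level ran from 1135 to 1375 CPM in control and from 1029 to 1117 CPM in knockout, without overlap. The summed levels of the peptidergic, A-fibre and cold neuron markers overlapped. Cold neurons had Cdh8 (log2 -0.49) called lower among 11 markers, and 3 lower in the 9 libraries alone. Trpm8, the cold receptor, lay at 61.4 ± 3.74 CPM in control and 39.9 ± 2.61 CPM in knockout, without overlap, and was called in the 9 libraries alone (adjusted p = 1.78e-05) but not in all 15 (adjusted p = 0.103). Calls lost on omission were those of Ceacam10 without 4 of the 9 libraries, Shox2 without 6, Ntrk3 without 8 and Ntf3 without each (adjusted p up to 0.0828, 0.117, 0.138 and 0.179).

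**Figure D3:**
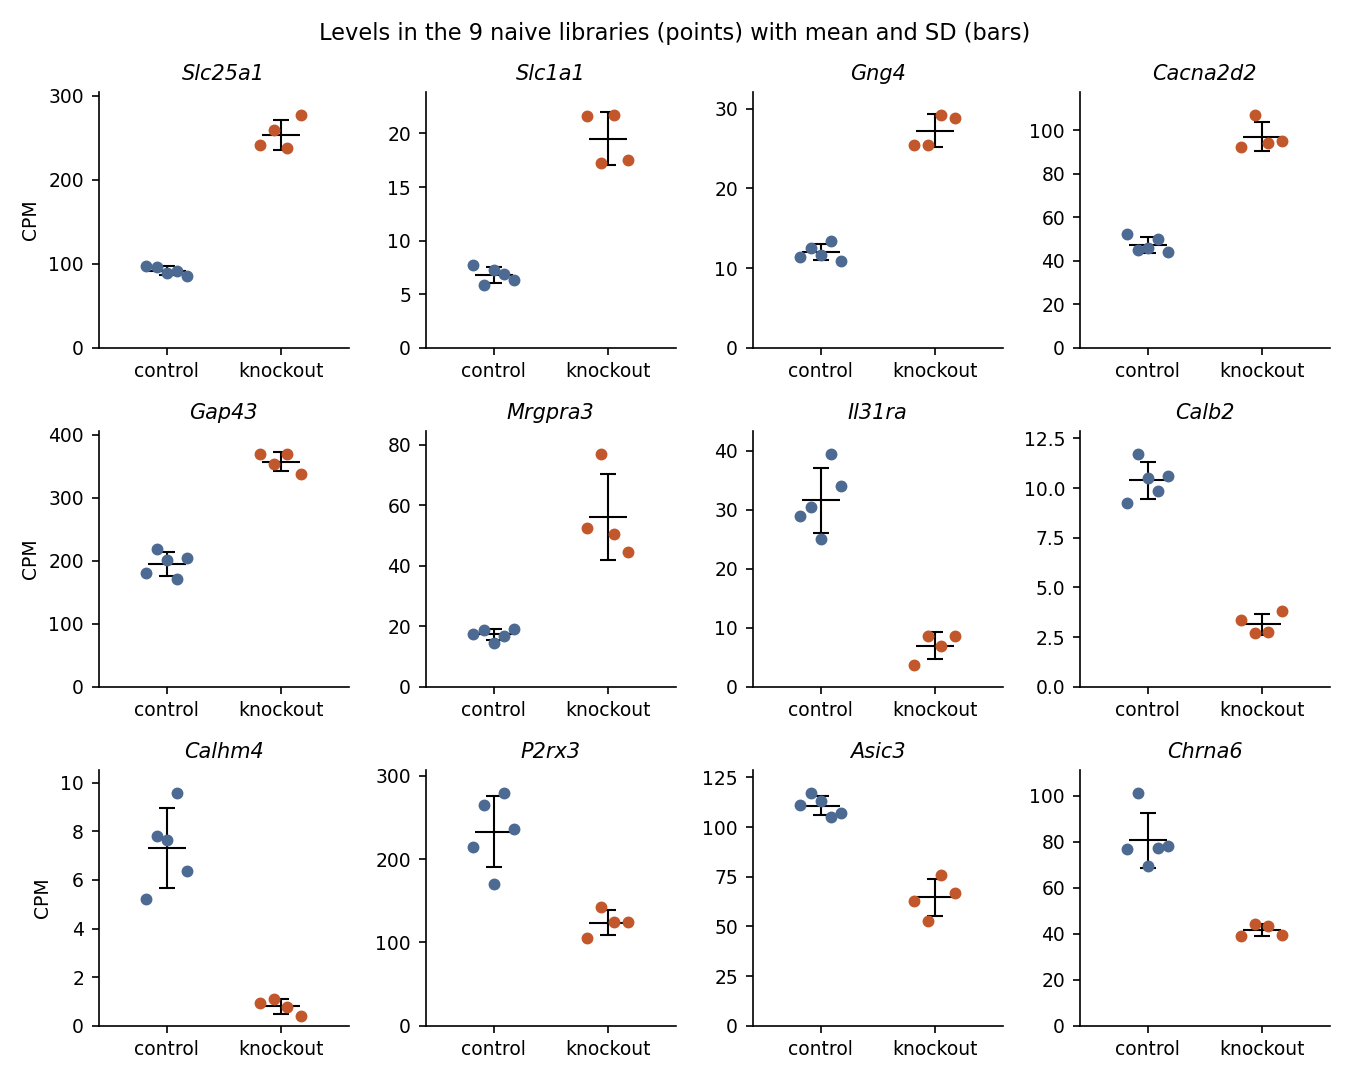
Levels of 12 genes in the 5 control and 4 knockout naive libraries, in CPM, with the mean and SD of each group. In each panel the groups do not overlap, and the control libraries of P2rx3, from 170 to 279 CPM, spread more than those of Asic3, from 105 to 117 CPM.

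Ion channel genes were called in small numbers in each family. The shares called were 9.52% of calcium channel, 7.41% of TRP and mechanosensitive channel and 2.25% of potassium channel genes. Over all genes it was 1.89%. Cacna2d2, an auxiliary calcium channel subunit bound by gabapentin, was at 52.5, 44.8, 45.7, 50.1 and 43.9 CPM in control and 92.5, 107, 94.1 and 95.1 CPM in knockout (log2 1.04, SE 0.127). With Cacnb1 (log2 0.60, not called without knockout replicate 9, adjusted p = 0.062) it made up the 2 calls among 21 calcium channel genes. None of the pore subunits was among them. Asic3, the acid-sensing channel of muscle and joint afferents, was at 111, 117, 113, 105 and 107 CPM in control and 62.8, 52.9, 75.7 and 66.9 CPM in knockout (log2 -0.77, SE 0.112, adjusted p = 9.85e-04). Of 27 TRP and mechanosensitive channel genes 2 were called lower, Asic3 and Trpm6, a magnesium-permeable channel, and 21 lay below 0, with a median of -0.10. Piezo2, the channel of light touch, lay at 565 ± 63.5 against 446 ± 30.0 CPM and was called in the 9 libraries alone (adjusted p = 0.0125, against 0.211 in all 15). Of 89 potassium channel genes Kcnq5, an M-current subunit, and Kcnip1, which modulates A-type channels, fell by 0.63 and 0.66, and 64 of the 89 lay below 0. In the 9 libraries alone 10 potassium channel genes were called lower and 2 higher.

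Nicotinic receptor subunits had calls in both directions among 12 genes. Chrnb3 and Chrna6, which lie 3.5 kb apart on chromosome 8, both fell, Chrnb3 from 12.1 ± 1.65 to 6.13 ± 0.875 CPM and Chrna6 from 80.4 ± 11.8 to 41.5 ± 2.61 CPM. Chrna3, the main alpha subunit of autonomic ganglia, was at 7.98, 13.4, 7.75, 12.5 and 10.9 CPM in control and 14.5, 22.1, 28.2 and 18.4 CPM in knockout (log2 0.99), and was not called without knockout replicate 8 (adjusted p = 0.0622). A pair of genes of acetylcholine handling rose beside it, Slc5a7, the choline transporter (log2 0.76), and Ache, the esterase (log2 0.52). Lrrc8b, a volume-regulated anion channel subunit, fell from 55.3 ± 5.07 to 27.6 ± 0.801 CPM. It was the single call among 34 chloride channel and transporter genes (2.94%, beside 1.89% over all genes). Voltage-gated sodium channel genes had 0 of 19 called in edgeR's test, with 6 at an unadjusted p under 0.05, 2 called by DESeq2, 0 by limma-voom, and Scn3b (log2 0.42) called in the 9 libraries alone. The calls of Slc5a7, Ache and Trpm6 were each lost without 8 of the 9 libraries, where adjusted p reached 0.112, 0.134 and 0.115.

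Receptors that signal through G proteins had calls in both directions. Among 51 neuropeptide and amine receptor genes Htr1a and the somatostatin receptor Sstr2 (log2 -0.92) were called lower, and Galr1, a galanin receptor, higher, from 4.22 ± 0.887 to 10.8 ± 1.95 CPM. Among 24 prostanoid, leukotriene and lysolipid receptors the prostaglandin F receptor Ptgfr fell from 42.7 ± 4.25 to 24.7 ± 4.06 CPM, beside Lpar3 and Lpar5. Of 74 adhesion and orphan receptors 3 adhesion receptors were called lower, Adgrd1, Adgrg2 and Adgra3, and 1 orphan, Gpr45, higher. Adgrd1 was at 9.55, 11.5, 10.2, 14.2 and 9.51 CPM in control and 4.98, 3.67, 4.09 and 4.31 CPM in knockout (log2 -1.37, SE 0.22). The highest knockout library lay well below the lowest control library. Sstr2 and Adgrg2 were not called without 5 of the 9 libraries, Gpr45 without 7 and Adgra3 without 8 (adjusted p up to 0.0779, 0.0953, 0.119 and 0.177).

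Genes that carry or damp the signal inside the cell were called mostly higher. The shares called were 9.8% of G protein and RGS, 5.17% of Ras and MAP kinase, 7.3% of phosphatase and 4.17% of small GTPase genes. Over all genes it was 1.89%. Of 51 genes of G protein subunits and RGS regulators, which speed the inactivation of G proteins, 4 were called higher, Gng4, Gng12, Rgs2 and Rgs8, and 1 lower, Rgs6. Rgs2 was at 15.5, 15, 20.3, 16.2 and 16.1 CPM in control and 40.8, 34.8, 34.2 and 34.6 CPM in knockout (log2 1.12, SE 0.134, adjusted p = 1.77e-04). Of 58 Ras and MAP kinase genes Rasgrf1, an exchange factor of Ras, Braf, a kinase below it, and Dusp26, a phosphatase, were called higher and none lower. Rasgrf1 was at 14.8 to 20.5 CPM in control and 37.9 to 47.4 CPM in knockout (log2 1.32, SE 0.138). Of 137 protein phosphatase genes 7 were called higher, Ppm1f, Ppp3r1, Ppm1l, Ptprn2, Ptpn9, Ppp2ca and Dusp26, and 3 lower, the receptor phosphatases Ptprt, Ptprd and Ptprk. Ppm1f, which removes phosphate from CaM kinases, was at 103 to 113 and 186 to 202 CPM (log2 0.82), and Ppp3r1, the regulatory subunit of calcineurin, at 181 to 217 and 277 to 331 CPM (log2 0.62). Camk2n1, an inhibitor of CaM kinase II, rose from 31.5 ± 3.26 to 52.7 ± 4.47 CPM and Pde1c, a calmodulin-dependent phosphodiesterase, from 121 ± 5.86 to 201 ± 15.1 CPM. Of 144 small GTPase genes Arf2, Rab27a, Arl10, Arl2 and Rab12 were called higher and Rab37 lower. Ppm1l was not called without 3 of the 9 libraries, Ptprn2 and Ptprd without 5, Braf, Rgs6, Rab27a and Arl10 without 6, Rgs8 and Dusp26 without 7, Ptpn9 and Ppp2ca without 8, Rab37 without 8, and Arl2 and Rab12 without each. The highest adjusted p among these was 0.158, for Dusp26 without knockout replicate 9.

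Solute carriers, a large family of 280 tested genes, had the largest number of rises in a family. Of the 280, 10 were called higher and 3 lower (4.64% called, beside 1.89% over all genes). Protein phosphatases, with 7 of 137 called higher, had a larger share called (7.3%). Beside Slc25a1 and Slc1a1 the rises were Slc36a4, an amino acid carrier (log2 0.44), Slc2a13, a myo-inositol carrier (log2 0.57), Slc29a4, a monoamine carrier (log2 0.57), Slc35a1, which brings CMP-sialic acid into the Golgi (log2 0.59), Slc39a1, a zinc carrier (log2 0.38), Slc5a7, Slc44a2 (log2 0.36) and Slc25a25 (log2 0.33). Among the falls were Slc16a12 (log2 -0.50) and Slc38a11 (log2 -1.26). The median of the family was 0.00, with 141 genes above 0 and 139 below. Of 41 ABC transporters Abcc4 (log2 -0.45) and Abca12 (log2 -1.20) were called lower. Among the calls kept on every omission were those of Slc25a1, Slc1a1, Slc36a4 and Slc2a13. Slc29a4 was not called without knockout replicate 9 (adjusted p = 0.0638), and the others named lost their call without 5 to 9 of the 9 libraries, where adjusted p reached 0.16.

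Genes of lipid, glycan and sugar metabolism were called in small numbers, and pathways were not tested as sets. Insig2, which holds back the activation of sterol synthesis genes, was higher in all 4 knockout libraries, at 43.1 ± 1.59 CPM in control and 67.2 ± 3.55 CPM in knockout (log2 0.64, SE 0.0967, adjusted p = 0.00149). Cholesterol synthesis genes had 0 of 25 called in edgeR's test and 5 called higher in the 9 libraries alone, among them Mvd (log2 0.36), and 22 of the 25 lay above 0 with a median of 0.14. At an unadjusted p under 0.05 there were 4, DESeq2 called 2 and limma-voom 0. Their summed level did not overlap, at 3691 to 4074 CPM in control and 4204 to 4354 CPM in knockout. Of 148 glycosyltransferase genes 3 were called higher and 1 lower (2.7%, beside 1.89% over all genes). The rises were B4galnt1, Chst10, which adds the sulfate of the HNK-1 glycan, and Fut9, which makes the Lewis X glycan. The fall was Chst9. Chst10 was at 8.38 to 10.3 CPM in control and 19.6 to 21.3 CPM in knockout (log2 1.13, SE 0.119). Fut9 was at 0.574 to 1.67 CPM and 2.74 to 3.23 CPM (log2 1.35, SE 0.229). Of 32 glycolysis and lactate genes 2 were called higher and 1 lower (9.38%, beside 1.89% over all genes). In the 9 libraries alone 5 were higher and 2 lower. The glycolytic enzymes Eno1 (87.7 ± 5.03 to 133 ± 12.7 CPM) and Tpi1 (496 ± 33.1 to 645 ± 45.1 CPM) rose. Pfkfb3, whose product drives glycolysis, and the adjacent genes Fbp1 and Fbp2, which work in the opposite direction, fell (log2 -0.43, -1.18 and -1.37). Tpi1 was not called without any 1 library, Pfkfb3 and Chst9 without 7 of the 9 and Fbp1 without knockout replicate 4 or 9 (adjusted p up to 0.143, 0.145, 0.119 and 0.0671).

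Among genes of axon growth and guidance, Gap43, a growth cone protein, was at 180, 219, 201, 171 and 204 CPM in control and 369, 353, 369 and 338 CPM in knockout (log2 0.87, SE 0.099, adjusted p = 1.11e-04). Its relative Basp1 (log2 0.38) was the other call among 38 genes of axon growth and nerve injury, where the median was -0.03. The injury transcription factor Atf3 was not called (log2 -0.48, adjusted p = 0.29). Plppr4 and Plppr5, related membrane proteins of growing axons, rose by 0.84 and 0.91, and Ina, the neurofilament subunit alpha-internexin, rose from 30.2 ± 2.37 to 50.8 ± 5.49 CPM. Of 70 axon guidance genes the ephrin receptor Epha8 (3.01 ± 0.493 to 7.62 ± 1.81 CPM) and the netrin receptor Unc5d (3.33 ± 0.389 to 7.28 ± 1.71 CPM) were called higher and the Slit receptor Robo2 lower. Robo2 was at 191, 211, 184, 222 and 190 CPM in control and 148, 145, 150 and 146 CPM in knockout (log2 -0.44, SE 0.0979), a small step with a knockout range of 5 CPM. Unc5d was not called without any 1 library, Robo2 without 8 of the 9 and Basp1 without 7 (adjusted p up to 0.158, 0.11 and 0.11).

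Calls among cadherins and among neurexins and their partners were all lower. Immunoglobulin superfamily genes had 1 call higher and 1 lower, as did integrins and laminins. The shares called were 6.35% of cadherins, 10% of neurexins and partners, 3.17% of immunoglobulin superfamily genes and 5% of integrins and laminins. Over all genes it was 1.89%. Of 63 cadherins and protocadherins 4 were lower, Cdh12, Cdh8, Cdh20 and Cdh1, and none higher, with a median of 0.03 over the family. Of 30 neurexins, neuroligins, teneurins and their partners 3 were lower, Tenm2 (30.1 ± 3.15 to 19.8 ± 1.46 CPM), Nxph1 and C1ql4 (7.37 ± 1.82 to 2.19 ± 0.401 CPM). Of 63 adhesion genes of the immunoglobulin superfamily Islr2 was higher (log2 0.84) and Ceacam10 lower, and the calls among 40 integrins and laminins included the integrin subunit Itga3, which was higher (log2 0.56). The following genes were singled out after their values were seen and form no list. The synaptic scaffold genes Dlg2 (log2 -0.61), Grip1 (log2 -0.41) and Homer2 (log2 -0.38) fell, while Dlg3 (14.5 ± 2.52 to 22.7 ± 1.65 CPM), a paralog of Dlg2, and Cntnap4 (44.2 ± 3.17 to 67.6 ± 6.10 CPM), a relative of the neurexins, rose. Nbea, which works in receptor trafficking, fell (52.1 ± 4.91 to 30.8 ± 4.28 CPM). Of 76 synaptotagmin and SNARE genes 2 fell (2.63%, beside 1.89% over all genes), the exocytosis genes Sytl2 (log2 -0.59) and Sytl3 (log2 -0.61). Core genes of synaptic vesicle release had 0 of 41 called in edgeR's test (median 0.05), with 6 at an unadjusted p under 0.05, 1 called by DESeq2 and 0 by limma-voom, and 2 higher, Syp among them, and 1 lower in the 9 libraries alone. Grip1 was not called without 3 of the 9 libraries, Itga3 without 5, Dlg2 without 6, Cdh20, Homer2 and Islr2 without 8 and Cdh1 without any 1 (adjusted p up to 0.182).

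**Figure D4:**
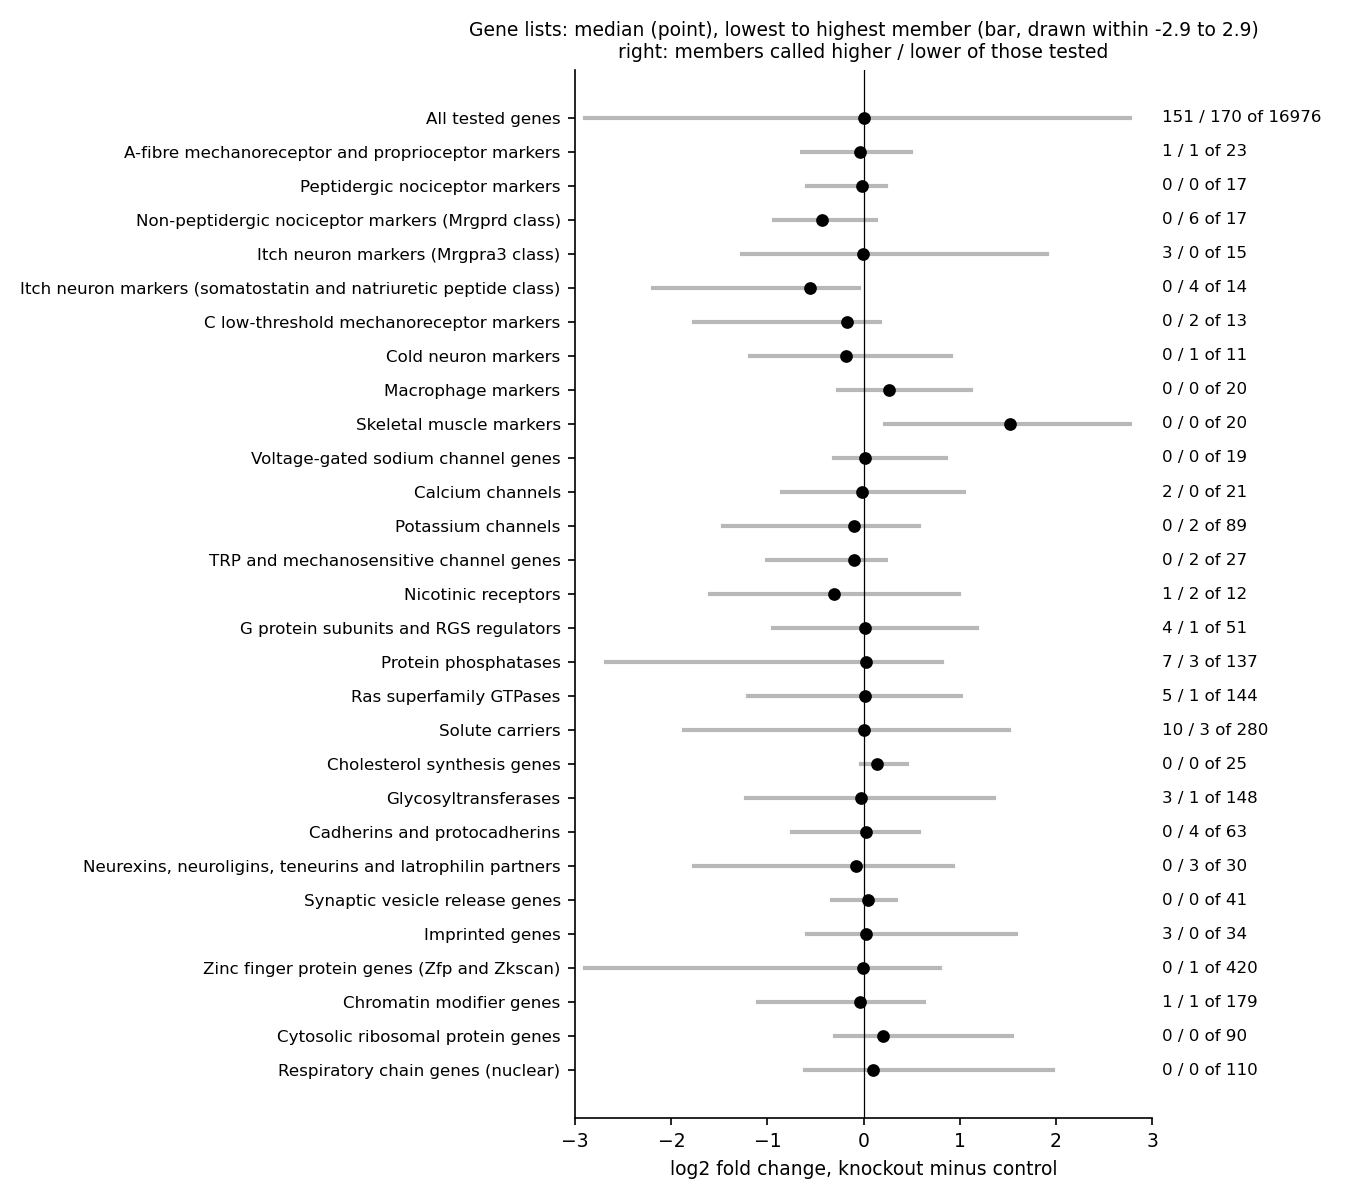
Gene lists and families, with the median log2 fold change as a point, the lowest and the highest member as the ends of a bar that stops at the limits of the plot, and the members called higher and lower of those tested at the right. The medians of the Mrgprd class (-0.43) and of the Sst and Nppb class (-0.56) lie lowest among the lists drawn and that of skeletal muscle (1.52, none called) highest.

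Zinc finger, chromatin modifier and splicing factor genes had shares called under the 1.89% over all genes, and imprinted genes a larger share (8.82%). Of 420 zinc finger genes 1 was called (Zfp385b, lower, 0.238%), and of 179 chromatin modifier genes 2, Prdm8 higher and L3mbtl4 lower (1.12%). Of 78 homeobox genes matched by symbol Hoxb7 was called higher (1.28%), with 9 higher and 1 lower in the 9 libraries alone. This match leaves out the homeobox gene Shox2, which was called higher too, as given above. Of 146 splicing factor and RNA-binding genes 2 were called, the neuronal splicing regulators Nova1 and Nova2, and both rose. Nova1 was at 4.53, 4.25, 5.04, 4.74 and 3.6 CPM in control and 10.9, 8.23, 7.32 and 9.27 CPM in knockout (log2 1.00, SE 0.142). Nova2 was at 11.5 to 13.6 CPM in control and 22.3 to 25.9 CPM in knockout (log2 0.91, SE 0.148). Nova2 overlaps the predicted gene Gm26821 on the other strand, which was called higher as well (log2 0.95, lost without knockout replicate 4 or 9). Of 34 imprinted genes, which are expressed from 1 parental copy, 3 were called higher and none lower. These were Rasgrf1, Zdbf2 (3.36 ± 0.522 to 10.2 ± 1.45 CPM) and Impact (147 ± 9.89 to 206 ± 18.3 CPM). In the 9 libraries alone 5 imprinted genes were higher and 0 lower. The summed level of the list was 6209 to 7334 CPM in control and 7596 to 8742 CPM in knockout, without overlap. Impact was not called without control replicate 6 or knockout replicate 5 or 8 (adjusted p up to 0.081), Prdm8 without 6 of the 9 libraries, L3mbtl4 without 7 and Zfp385b and Hoxb7 without 8 (adjusted p up to 0.138).

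Large housekeeping families had no call in edgeR's test over 15 libraries. Cytosolic ribosomal protein genes had 0 of 90 called, yet 85 lay above 0 with a median of 0.20, and 14 were called higher in the 9 libraries alone, among them Rps10 (log2 0.64, adjusted p = 0.00678 there) and Rpl27a (log2 0.44, adjusted p = 0.00222 there). Nuclear respiratory chain genes had 0 of 110 called, 89 above 0 and a median of 0.10, and 3 were called higher in the 9 libraries alone. Mitochondrial ribosomal protein genes had 0 of 80 (median 0.10, 2 higher in the 9 libraries alone) and proteasome genes 0 of 48 (median 0.06, none). Translation factors and aminoacyl-tRNA synthetases had 0 of 103, with 1 lower in the 9 libraries alone. Genes of the microRNA machinery had 0 of 25 called, with 21 below 0 and a median of -0.09, and Tnrc6b (log2 -0.28) lower in the 9 libraries alone. Circadian clock (22), immediate early (28) and cell division genes (25) had no call in either fit. At an unadjusted p under 0.05 stood 4 cytosolic and 1 mitochondrial ribosomal, 2 respiratory chain, 1 proteasome, 7 translation, 4 microRNA machinery, 1 clock, 1 immediate early and 0 cell division genes. DESeq2 called 1 respiratory chain and 1 translation gene of these families, and limma-voom 0.

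For a single gene the SE of the log2 fold change was 0.14 (median over tested genes). In simulated counts the 15-library fit recovered 34% of 1.5-fold and 75% of 2-fold changes.

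Markers of cells other than neurons showed few calls in edgeR's test. At an unadjusted p under 0.05 stood 0 myelinating Schwann cell, 2 satellite glia, 6 macrophage, 1 endothelial and 1 muscle marker, of which DESeq2 called 1 satellite glia marker and limma-voom 0. Myelinating Schwann cell markers had 0 of 16 called (median -0.09) and satellite glia markers 0 of 16 (median 0.02), with summed levels of 4097 to 4393 CPM in control and 3981 to 4451 CPM in knockout for the latter. Macrophage markers had 0 of 20 called and 3 higher in the 9 libraries alone, C1qb and C1qc among them. Their median of 0.26 went to 0.07 without knockout replicate 4, the library with the highest summed level (549 CPM, against 302 to 394 CPM in control). All 20 skeletal muscle markers lay above 0, with a median of 1.52 and none called in either fit. Their summed level was 478 CPM in knockout replicate 8, 95.0 to 257 CPM in control, and the median without that library was 0.45. The part of muscle tissue or of macrophages in other results was not tested. Cd34, a surface protein of vessel and stromal cells, fell from 77.8 ± 9.13 to 43.8 ± 2.30 CPM (log2 -0.83, adjusted p = 1.11e-04). Endothelial markers had 0 of 14 called and a median of 0.00. Cd34 overlaps the predicted gene Gm16897 on the other strand, which was called lower too (log2 -0.65, lost without 7 of the 9 libraries). Of 15 fibroblast markers 12 lay below 0 (median -0.11), and Cilp, a matrix gene, was the single call, from 4.12 ± 0.737 to 1.29 ± 0.303 CPM. Of 13 perineurial and meningeal markers 11 lay below 0 (median -0.21), with summed levels of 546 to 881 CPM in control and 333 to 654 CPM in knockout, which overlap. The single call of that list was higher, Lgals7, a galectin of stratified epithelia (0.398 ± 0.133 to 1.78 ± 0.658 CPM). The part of these cells in other results was not tested.

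Low transcripts had calls in both directions, and those given here were singled out after their values were seen. Calhm4, of the calcium homeostasis modulator channels, was at 5.22, 7.81, 7.66, 9.57 and 6.37 CPM in control and 0.915, 1.09, 0.760 and 0.392 CPM in knockout (log2 -3.16, SE 0.366, adjusted p = 1.36e-04). It lies inside the span of Trappc3l on the other strand, which fell by 0.42 on the log2 scale (not called without 6 of the 9 libraries, adjusted p up to 0.137). Clec18a, a C-type lectin, was at 9.95, 6.66, 6.82, 5.28 and 3.78 CPM in control and 0.813, 0.397, 0.665 and 1.70 CPM in knockout (log2 -2.91, SE 0.437). Sycp1, a protein of the meiotic synaptonemal complex, had 138 counts over the 5 control libraries, 2.15 to 3.42 CPM, and none over the 4 knockout libraries. Set against a floor of 3 counts for the whole knockout group, this is at least 34.2-fold lower, with counting error only. Dnah6, an axonemal dynein (4.29 ± 0.760 to 1.19 ± 0.320 CPM), was called lower as well. Among low transcripts called higher were Lgals7, Myl2, a myosin light chain of muscle (0.399 ± 0.188 to 1.53 ± 1.02 CPM, not called without any 1 library, adjusted p up to 0.258), and Nanos2, a germ cell gene (0.453 ± 0.109 to 1.14 ± 0.267 CPM). Tekt2, an axonemal tektin, was at 1.28 to 1.75 CPM in control and 8.13, 2.88, 10.7 and 2.22 CPM in knockout (log2 1.94, SE 0.367), and was not called by limma-voom (adjusted p = 0.0524). Of 46 motile cilium and axoneme genes Dnah6 and Tekt2 were the 2 calls.

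The injured animals, which share no library with the naive ones, showed most of these changes in the same direction. Their libraries did enter the fit that made the calls, through the estimate of the spread. Of the 151 rises 142 (94.0%) were in the same direction there and 52 were called, with a median of 0.48 on the log2 scale. Of the 170 falls 150 (88.2%) were in the same direction and 29 were called, with a median of -0.41. Among genes not called in naive ganglia 52.1% had the same direction in both, and 1.04% of all genes were called in injured ganglia. For the calls of the 9 naive libraries alone, which do not use the injured libraries, the shares in the same direction were 72.2 and 78.4%. The medians of those rises and falls in injured ganglia were 0.24 and -0.23. B4galnt1 had a log2 fold change of 1.71 in injured and 1.24 in naive ganglia, Vat1, a vesicle membrane protein, 1.08 and 0.89, Calb2 -2.06 and -1.73, and Ptgfr -1.28 and -0.78. Mrgpra3 had 0.76 in injured and 1.70 in naive ganglia, Mrgprb4 0.59 and 1.91, Mrgprd -0.13 and -0.90, and P2rx3 -0.45 and -0.91. Adgrd1 had 0.29 and -1.37, Ildr2, an immunoglobulin-domain membrane protein, 0.68 and -0.92, and Tenm2 0.02 and -0.60. The naive call of Ildr2 was lost without 6 of the 9 libraries, where adjusted p reached 0.115.

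Whether these differences passed a test of their own depended on the tool and the setting. The difference between the naive and the injured effect was called for 0 of 16976 genes in edgeR's test (0.00%), with 2281 genes at an unadjusted p under 0.05, and for 0 genes in limma-voom. DESeq2 called 12, among them Adgrd1 (log2 difference -1.66, adjusted p = 0.00397), Ildr2 (-1.61, adjusted p = 0.00244) and Flnc (-1.62, adjusted p = 1.31e-04), a muscle filamin that lies on chromosome 6 within 1 Mb of the cluster. Adgrd1 was also called by edgeR with the Y-linked covariate (log2 difference -1.89, adjusted p = 0.0404), and Flnc by edgeR without control SNI replicate 23 (adjusted p = 0.0484) or without the filter on low counts (adjusted p = 0.0205).

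**Figure D5:**
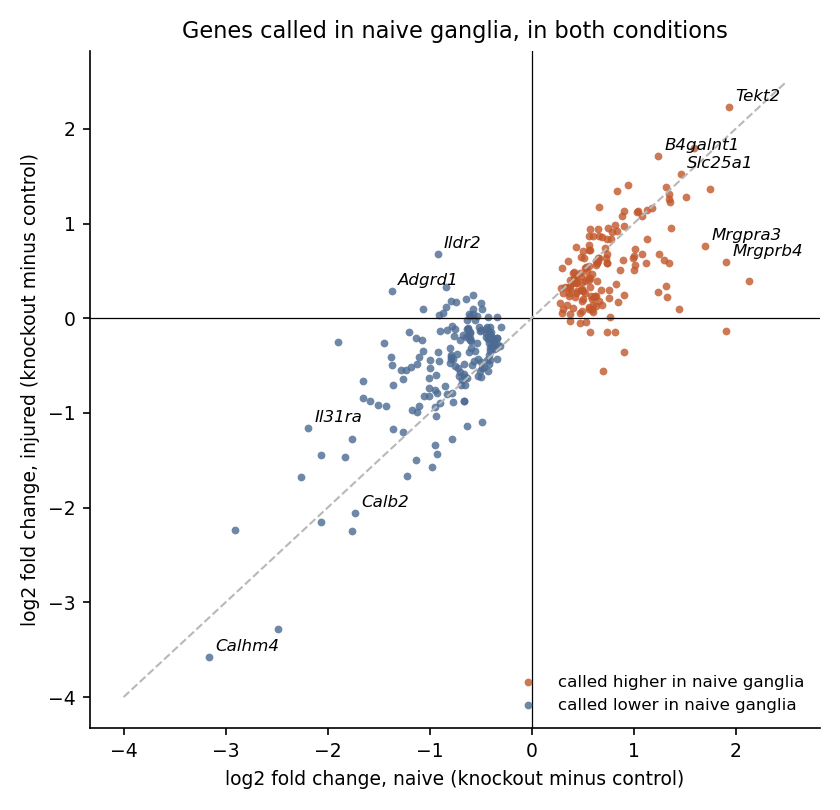
Log2 fold changes of knockout against control for the genes called in naive ganglia, in naive ganglia on the horizontal axis and in injured ganglia on the vertical axis, with the line of equal values dashed and Sycp1 left out. Most points lie in the quadrants of equal direction, and Adgrd1 and Ildr2 are among the 20 falls that were higher in injured knockout ganglia.

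By position, the calls were spread over the genome. The floxed allele lies on chromosome 6, where 1.78% of tested genes were called, and the shares of the other chromosomes ran from 0.742% (chromosome 17) to 2.67% (chromosome 9). Within 1 Mb of the cluster 0 of 23 tested genes were called in edgeR's test, 0 by DESeq2 and limma-voom and 2 in the 9 libraries alone, with 3 at an unadjusted p under 0.05. Within 5 Mb 1 of 57 was called, Lrguk (3.58 ± 0.506 to 1.46 ± 0.579 CPM, not called without knockout replicate 4, 8 or 9, adjusted p up to 0.0607). Between 5 and 20 Mb 3 of 136 were called (2.21%), Braf higher and Vwde and Thsd7a lower. Nrf1 and Ube2h, which flank the microRNA genes, had log2 fold changes of 0.01 and 0.00. Of 39022 pairs of tested genes within 100 kb of each other 25 had both genes called (0.0641%). The direction was the same in 22 of the 25, where 53.2% of all such pairs had log2 fold changes of the same sign, and 10 of the 25 had annotated spans that overlap. This was not tested. The pairs in the same direction without overlap include Chrnb3 with Chrna6, Fbp1 with Fbp2, Sytl2 with Dlg2, and Nova2 with Nanos2, whose call was lost without 5 of the 9 libraries.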

How the data were processed

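RNA of L4 to L6 dorsal root ganglia was sequenced, 1 library per animal. The authors deposited 1 table of whole-number read counts per gene for all 15 libraries, with Ensembl identifiers. Per the submitters' processing notes, the tools were HTSeq 0.6.1, TopHat2 2.0.4, Cufflinks, DESeq2 and SAMtools, on the build GRCm38. Which annotation release and strand setting were used, and how reads with several matches were treated, is not stated in these sources, so overlapping genes and close paralogs are uncertain. Symbols were matched through GENCODE M21 for 37607 of 39179 identifiers, and the rest held 0.523% of the counts.

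Counts were filtered with filterByExpr and fitted with edgeR 4.0.16 (TMM factors, robust quasi-likelihood) with 4 group means over all 15 libraries, which left 11 residual degrees of freedom and 16976 genes. The common biological coefficient of variation was 15.3%. Adjusted p values are Benjamini-Hochberg values over all tested genes. CPM are counts scaled to the effective library size, and levels were not compared between genes. Alternatives were DESeq2 1.42.0, limma-voom (limma 3.58.1), other scalings and filters, other sets of libraries, and a covariate for Y-linked transcripts (over 50 CPM), which was chosen after seeing the data. The fit was tested on simulated counts.

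The members, lists and tests were chosen with earlier results of these data known. Named are called genes with the smallest p and a mean of at least 1 CPM whose groups do not overlap, the called members of the lists described (up to 8, otherwise up to 2 members with the smallest p), genes called higher with 2 or more 8mers and called genes within 20 Mb of the cluster. Ache, Slc44a2, Insig2, Fbp1, Fbp2, Plppr4, Plppr5, Dlg2, Dlg3, Grip1, Homer2, Cntnap4, Nbea, Ildr2, Flnc, Piezo2, Sst, Nppb, the genes that overlap or neighbour others, the genes that flank the cluster and several genes of low level fall outside this rule or were singled out after their values were seen. A few genes and 1 site that these rules give are not reported here.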

Additional observations from a re-analysis of the deposited data

Results flagged for a closer look

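Of 350 groups screened, 175 genes in 2 groups each, 24 held a library whose distance to its nearest neighbour took up an unusually large part of the range. Chance gives about 1 in 20 groups.

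Among the control libraries, replicate 2 was highest for Chrna6 (101 CPM, nearest 78.2), Nbea (60.6 CPM, nearest 51.2) and Plppr4 (10.6 CPM, nearest 9.24) and lowest for Nova2 (11.5 CPM, nearest 13). Replicate 3 was highest for Rgs2 (20.3 CPM, nearest 16.2) and lowest for Ptpn9 (76.8 CPM, nearest 90.5) and Trp53i11 (9.24 CPM, nearest 10.5). Replicate 6 was highest for Lrrc8b (64.3 CPM, nearest 53.8) and Sst (7.01 CPM, nearest 4.48) and lowest for Arf2 (25.3 CPM, nearest 29.9). Replicate 7, the wild type without Cre, was lowest for Evi5l (72.6 CPM, nearest 84.9) and Adgra3 (32 CPM, nearest 36.9).

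Among the knockout libraries, replicate 4 was highest for Rgs2 (40.8 CPM, nearest 34.8) and Ppm1f (202 CPM, nearest 189), and replicate 5 lowest for Zdbf2 (8.03 CPM, nearest 10.7). Replicate 8 was highest for Adgrg2 (59.7 CPM, nearest 49.8), L3mbtl4 (3.04 CPM, nearest 1.73) and Abca12 (0.95 CPM, nearest 0.653). Replicate 9 was highest for Ube2h (88.2 CPM, nearest 75), Camk2n1 (59.4 CPM, nearest 51) and Ntf3 (2.22 CPM, nearest 1.39), and lowest for Insig2 (61.9 CPM, nearest 68.2), Lrrc8b (26.4 CPM, nearest 27.9) and Gm16897 (5.75 CPM, nearest 8.13).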

How the results depend on the processing

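The count of 321 called genes, 151 higher and 170 lower, rested most on the libraries in the fit. The 9 naive libraries alone called 1017 genes (504 higher, 513 lower), the same 9 with the range of animal numbers as a covariate 960 (467 and 493), 14 libraries without control SNI replicate 23 called 708 (372 and 336) and DESeq2 515 (257 and 258). Leaving out 1 naive library gave 151 to 229 genes, 81 to 109 higher and 70 to 120 lower. Fewer samples enter those fits, and the cause of the other shifts was not tested. Limma-voom (336), RLE (318) and upper quartile scaling (322), no filter on low counts (274), a filter at a mean of 1 CPM (314) and the Y-linked covariate (302) stayed within 1.5 times. The share of genes called higher with an 8mer was 47.6% and went to 27.6% in the 9 libraries alone. The difference between naive and injured effects was called for 0 genes, 12 in DESeq2, 1 in 14 libraries, 1 without the filter, 2 with the Y-linked covariate, and 0 to 1 on leaving out a naive library (Trp53i11, without knockout replicate 4).

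Of the 175 named genes, the only ones to change sign were 3 uncalled genes with a log2 fold change near 0. On leaving out 1 library Isl1 ran from -0.01 (knockout replicate 8) to 0.08, Nrf1 from -0.04 to 0.05 (below 0 without control replicate 2 or knockout replicate 5 or 8) and Ube2h from -0.06 to 0.03 (below 0 without control replicate 3 or 7 or knockout replicate 9). Nrf1 was at 0.00 with the range covariate and Ube2h at 0.00 in the 9 libraries and at -0.01 with either covariate. DESeq2 did not call Ntf3, Abca12 and Nanos2, limma-voom did not call Slc38a11, Abca12, Tekt2 and Myl2, and the range covariate did not call Tekt2. The Y-linked covariate lost 22 calls, among them Ntrk3, Ntf3, Slc5a7, Ache and Ptprk, and the fit without a filter lost 20. No paired analysis was possible because the naive groups share no replicate number.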

Other observations

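The summed level of the Y-linked genes was 360 and 348 CPM in knockout naive replicates 4 and 5, against 153 to 187 CPM in the 4 control naive libraries with Y-linked transcripts. The injured libraries with Y-linked transcripts held 150 to 185 CPM, knockout ones included (150 and 163 CPM).

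Sycp1, with no count in the 4 knockout naive libraries, was present in some injured libraries of both genotypes, at 1.77, 0 and 1.08 CPM in control and 0, 1.7 and 0.8 CPM in knockout.

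Adjacent called genes beyond those of the report include Ifi35 with Vat1 (log2 fold changes 0.57 and 0.89), Tspo with Ttll12 (0.77 and 0.49) and Pls1 with Atr (-0.69 and -0.41). In 3 neighbouring pairs the directions were opposite, Slc35a1 with Cfap206 (0.59 and -0.77), Caly with Sprn (0.56 and -0.39) and Cilp with Ubap1l (-1.65 and 1.08). Of these 12 genes the calls of Vat1, Pls1 and Cilp were kept on leaving out any 1 naive library, and the other 9 were lost without 7 to 9 of the 9.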
